A study of Mus musculus with 12 samples.

Results

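Elastic fibers, basement membranes and proteoglycan-rich matrix are built from secreted proteins other than collagens, and 36 genes for such proteins were followed in 4 NIH-3T3 lines. The genes were chosen by name and with earlier results of these data known, as members of 4 groups. These were 16 elastic fiber genes, 10 basement membrane genes, 6 genes for proteoglycans and hyaluronan, and 4 genes for cell-binding and modulating glycoproteins. All 36 were found among the 39179 gene IDs of the tables, and 34 of them were among the 15266 genes that averaged 10 or more normalized reads in 1 or more of the lines, which were tested. Fbn2 and Mfap2 were too low to be tested. NIH-3T3 is an immortalized mouse embryonic fibroblast line. The cells were infected with retrovirus and selected with puromycin, and expressed CBL-70Z, CBL-Y371S, WT-CBL or only the empty vector (EV), with 3 libraries for each line and 12 in all. CBL is a ubiquitin ligase that acts on receptor tyrosine kinases, WT-CBL is the unmutated protein, CBL-70Z lacks part of the linker helix region and the start of the RING domain, and CBL-Y371S carries a substitution of the linker tyrosine found in myeloid neoplasms. Both mutants lack ligase activity and were expressed, as was WT-CBL, on top of the Cbl gene of the mouse cells, and the comparison addresses what each form of CBL does to the transcriptome of these fibroblasts. All lines were grown in serum. There is 1 line for each construct, and whether it is a pool or a clone is not stated, so an effect of the construct cannot be told apart from a difference that arose as the line was selected. Nothing says that the libraries of a line came from separate cultures, and p-values therefore measure only the spread between these libraries, which may be technical.

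Elastic fibers have a core of elastin laid down on microfibrils, whose backbone is fibrillin and to which microfibril-associated glycoproteins bind. Fibulins, EMILIN1 and the latent TGF-beta binding proteins (LTBPs) sit on these fibers, help to assemble them or tether growth factors there. Basement membranes rest on a laminin network, in which each laminin joins an alpha, a beta and a gamma chain, and nidogens, perlecan and agrin connect this network to other components. Small leucine-rich proteoglycans bind and space collagen fibrils, and versican holds the hyaluronan that HAS2 makes at the cell surface. Fibroblasts are a main source of most of these proteins, whereas laminin networks are more typical of epithelial, muscle and endothelial cells.

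Depth was 20724468 to 29684881 reads in genes per library. The third WT-CBL library differed from both others of its line by 6.03 times the sampling noise (chi-square per degree of freedom), against 1.43 to 2.94 in every other pair of libraries of one line. This difference of WT-CBL replicate 3 followed exon length (Spearman rho -0.55 over 11141 genes averaging 100 or more), and called WT-CBL values that it moved by over 1.5 times, and calls of WT-CBL that it changed, are given with and without it. Reads at mouse Cbl were higher in CBL-70Z and CBL-Y371S than in EV, by 1.33 and 1.15 on the log2 scale, and in WT-CBL by 0.23 (SE 0.083, limma adjusted p = 2.8e-10, 4.2e-10 and 0.0294). Counts per gene cannot tell reads of the construct from those of the mouse gene, so these values measure neither alone. All 12 fibroblast markers were detected in each line. Their summed level was 755192 to 769573 normalized reads in CBL-70Z, 727187 to 779899 in CBL-Y371S, 875872 to 893746 in WT-CBL and 937408 to 970789 in EV, with 9, 9 and 7 of the 12 lower than in EV by the test and 2 higher in each comparison. These markers are mostly collagens in abundance and include none of the 36 genes. Other cell types left little signal. Summed levels over all libraries were 479 to 727 for 9 blood markers, 85.9 to 306 for 9 epithelial markers and 29.4 to 56.0 for 7 endothelial markers. For 7 smooth muscle and pericyte markers they were 2258 to 2780, carried by Smtn and Mylk, and for 7 cartilage and bone markers 2509 to 3914, carried by Sox9, whose mean was 3731 in CBL-70Z, 3764 in CBL-Y371S, 2812 in WT-CBL and 2519 in EV.

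Most of the 34 tested genes were lower in each CBL line than in EV. In CBL-70Z cells 23 fell and 3 rose at an adjusted p below 0.05 (limma on log2(value + 1), Benjamini-Hochberg over all tested genes), with a median log2 fold change of -0.25. Of all tested genes 24.3% were called in this comparison, 12.1% down and 12.2% up, with a median of 0.0050. In CBL-Y371S cells 24 fell and 4 rose, with a median of -0.51. The background there was 60.1% called, 30.3% down and 29.8% up, with a median of 0.0073. In WT-CBL cells 19 fell and 6 rose, with a median of -0.19, beside 41.8% of all genes called, 21.0% down and 20.8% up, and a median of 0.015. Without WT-CBL replicate 3 these were 19 down, 7 up and a median of -0.11. These matrix genes are abundant, and abundant genes are called more often. Of the 27 that averaged 1000 or more over the libraries, 21 fell and 3 rose in CBL-70Z, beside 38.5% of all genes that abundant called (19.2% in each direction). In CBL-Y371S 19 of the 27 fell and 4 rose, beside 80.3% called (40.1% down and 40.2% up), and in WT-CBL 16 fell and 6 rose, beside 63.6% (32.4% down and 31.2% up). The number of calls in CBL-Y371S was thus near that of other abundant genes, whereas falls outnumbered rises among the listed genes. The list was chosen with earlier results of these data known, so this excess of falls is a description and no test. In bulk RNA fewer cells of a type and less RNA per cell cannot be told apart. The summed fibroblast markers were likewise lower in each CBL line and Sox9 was higher, and their part in these results was not tested.

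The 36 genes together took 2.34% ± 0.010 of the reads in genes in CBL-70Z, 2.12% ± 0.028 in CBL-Y371S, 2.48% ± 0.13 in WT-CBL and 2.66% ± 0.028 in EV (SD, n = 3 libraries). Of 34 genes, 14 were lower than EV in all 3 lines, among them Nid2, Lum, Has2, Tnc, Lama5, Fbn1 and Mfap5, and 1, Efemp1, was higher in all 3. EV is shared by these comparisons. EV had the highest mean of the lines for 20 of the 34 genes, and CBL-Y371S the lowest for 19. The share of all tested genes with any of these patterns was not counted, so these tallies describe the listed genes only.

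**Figure D1:**
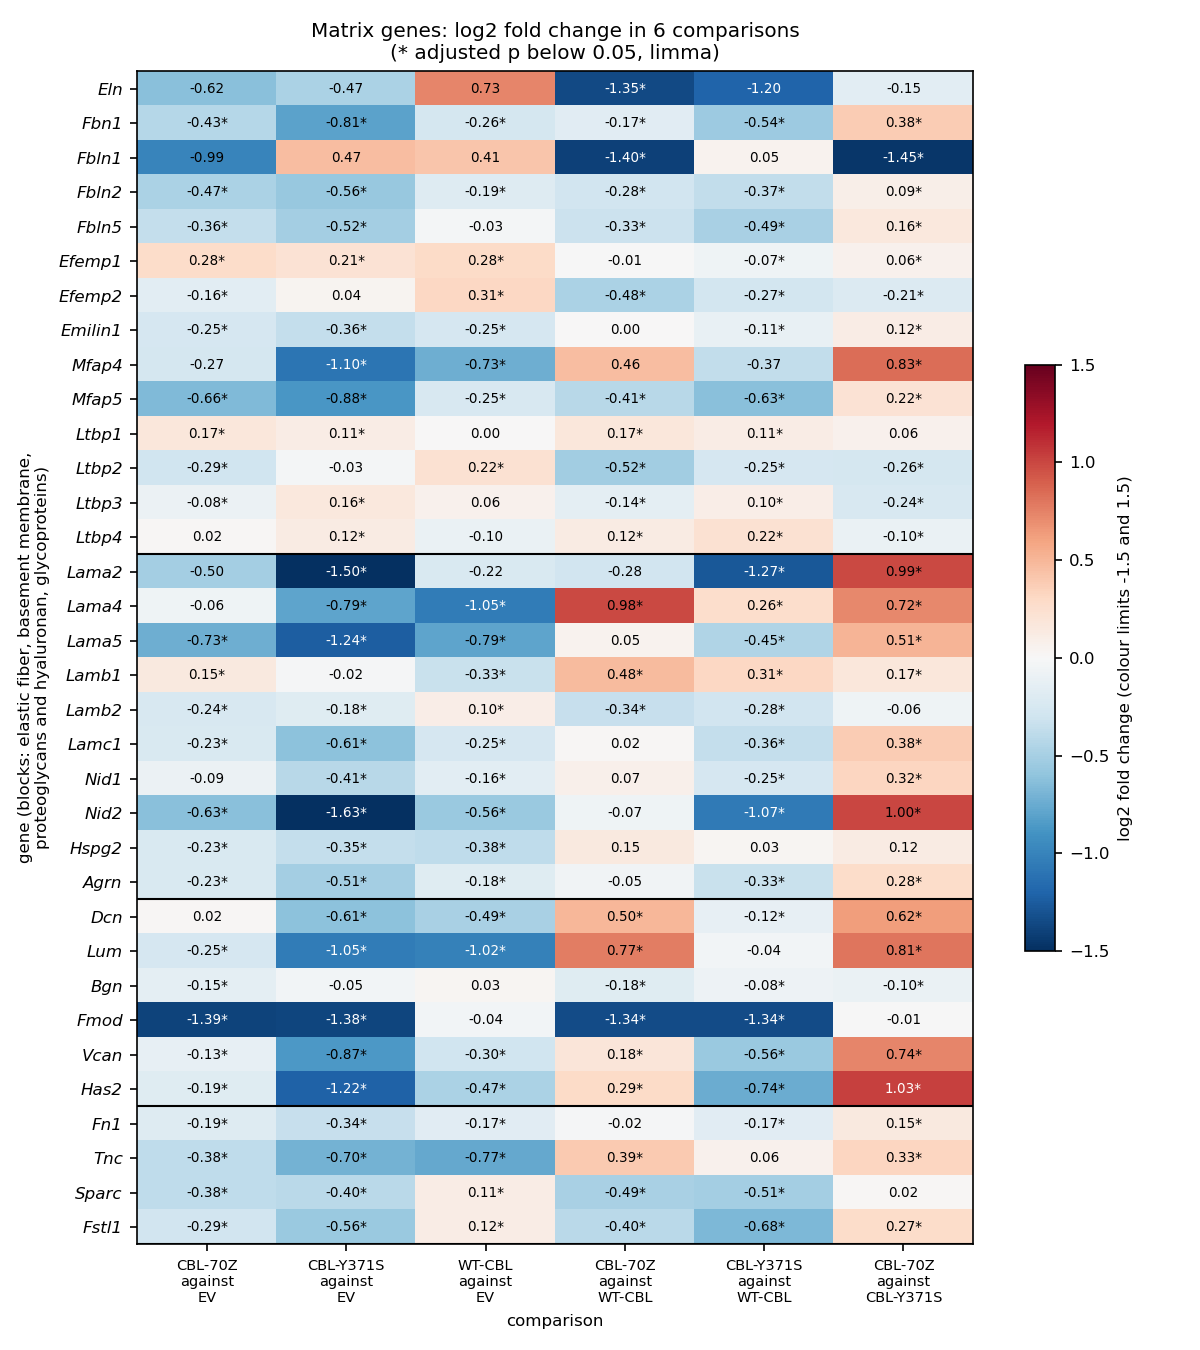
Log2 fold change of the 34 tested genes (rows, in blocks of elastic fiber, basement membrane, proteoglycan and hyaluronan, and glycoprotein genes) in 6 comparisons (columns), with an asterisk where the limma adjusted p was below 0.05. Blue is lower and red is higher in the line named first, and the CBL-Y371S against EV column holds 24 called falls and 4 called rises.

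Fibrillin 1 is a backbone protein of microfibrils, of which only the RNA was measured here. Fbn1 (ENSMUSG00000027204, chr2:125300594-125507993 of GRCm38, minus strand) had 14921, 15506 and 15002 normalized reads in CBL-70Z libraries, 11815, 11690.2 and 11476 in CBL-Y371S, 17430.1, 18548 and 15173 in WT-CBL and 20751, 20583 and 19817 in EV. All CBL-Y371S libraries lay below all CBL-70Z libraries, and all libraries of the 3 CBL lines lay below EV. The log2 fold changes against EV were -0.43 ± 0.047, -0.81 ± 0.047 and -0.26 ± 0.047 in CBL-70Z, CBL-Y371S and WT-CBL (± SE, adjusted p = 8.6e-07, 1.8e-11 and 0.00016, limma). Against WT-CBL they were -0.17 ± 0.047 in CBL-70Z and -0.54 ± 0.047 in CBL-Y371S (adjusted p = 0.00894 and 1.9e-08), and the CBL-70Z value, whose libraries overlapped those of WT-CBL, was not called without WT-CBL replicate 2 (adjusted p = 0.065). The fall in WT-CBL was -0.18 without WT-CBL replicate 3, and -0.069 with adjusted p = 0.0657 once the dependence of fold changes on exon length and GC content (called the length and GC trend from here) was removed. The falls in CBL-70Z and CBL-Y371S were then -0.35 and -0.57.

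Mfap5 encodes MAGP2, a small glycoprotein bound to fibrillin microfibrils. Its level was 1258, 1154 and 1085 normalized reads in CBL-70Z libraries, 983, 1031 and 989 in CBL-Y371S, 1471, 1584 and 1594 in WT-CBL and 1809.7, 1828 and 1872 in EV. The 4 lines did not overlap, in the order CBL-Y371S, CBL-70Z, WT-CBL and EV from low to high. Log2 fold changes against EV were -0.66 ± 0.047, -0.88 ± 0.047 and -0.25 ± 0.047 (limma adjusted p = 2.2e-09, 6.1e-12 and 0.00032), and both mutants were below WT-CBL (-0.41 and -0.63). Mfap4, whose product binds elastin and fibrillin, was at 32.7 normalized reads per kb of exon in EV, against 512 for Mfap5, and had 51.1, 46.5 and 56.5 normalized reads in CBL-70Z libraries, 18.3, 26.8 and 46.1 in CBL-Y371S, 43.3, 25.5 and 45.6 in WT-CBL and 62.3, 50.04 and 76.0 in EV. It fell in CBL-Y371S (-1.10 ± 0.26, adjusted p = 0.00127) and in WT-CBL (-0.73 ± 0.26, adjusted p = 0.0331), and in CBL-70Z the value was -0.27 ± 0.26 (adjusted p = 0.518). The WT-CBL call was lost without WT-CBL replicate 2, EV replicate 1 or EV replicate 3 (adjusted p = 0.0772 to 0.18), and its log2 fold change was -0.47 without WT-CBL replicate 2.

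Elastin transcripts were barely detected. Eln had 2.04, 6.49 and 8.38 normalized reads in CBL-70Z libraries, 2.89, 9.31 and 6.32 in CBL-Y371S, 17.9, 10.6 and 15.2 in WT-CBL and 4.02, 7.51 and 17.3 in EV, so its level per kb of exon was 0.70 to 1.80 normalized reads in the 4 line means, against 961 to 1681 for Fbn1. No comparison of a CBL line with EV was called for Eln, and the call in CBL-70Z against WT-CBL (-1.35 ± 0.5, adjusted p = 0.0425) was lost without CBL-70Z replicate 1 or 2, WT-CBL replicate 1 or 3, or EV replicate 2 (adjusted p = 0.0543 to 0.224). Fbln1, for fibulin 1, was as low, with 3.07, 2.16 and 3.14 normalized reads in CBL-70Z libraries, 10.6, 6.98 and 10.8 in CBL-Y371S, 17.9, 6.38 and 6.08 in WT-CBL and 3.01, 6.67 and 12.5 in EV. The CBL-70Z libraries lay below all CBL-Y371S and WT-CBL libraries and overlapped EV (against WT-CBL -1.40 ± 0.47 and against CBL-Y371S -1.45 ± 0.47, adjusted p = 0.0249 and 0.014), and the WT-CBL comparison was not called without CBL-70Z replicate 2 (adjusted p = 0.0796). For Fbn2, the second fibrillin, the levels were 0 in all CBL-70Z libraries and at most 1.16 elsewhere. Mfap2, which encodes MAGP1, was at 0 to 3.49. Among the microfibril genes, Fbn1 and Mfap5 were thus well expressed in every line while Fbn2 and Mfap2 were, like Eln, close to 0.

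The fibulins and their relatives did not move together. Fbln2 encodes fibulin 2, which binds fibrillin and laminin. It had 30266, 30375 and 30660.0 normalized reads in CBL-70Z libraries, 28921, 28653 and 28203 in CBL-Y371S, 37269, 38203 and 35560.2 in WT-CBL and 42268, 43056 and 41454 in EV, with no overlap between the lines. Log2 fold changes against EV were -0.47 ± 0.028, -0.56 ± 0.028 and -0.19 ± 0.028 (limma adjusted p = 1.2e-10, 1.9e-12 and 1.8e-05), and those of the mutants against WT-CBL were -0.28 and -0.37. Fbln5, for fibulin 5, needed in mice to form elastic fibers, had 9794, 10144 and 9842 normalized reads in CBL-70Z libraries, 8655, 9046 and 8956 in CBL-Y371S, 12332, 12496 and 12513 in WT-CBL and 12814, 12626 and 12662 in EV. In WT-CBL the value was -0.029 ± 0.026 (adjusted p = 0.393), while CBL-70Z and CBL-Y371S lay below both (against EV -0.36 ± 0.026 and -0.52 ± 0.026, against WT-CBL -0.33 ± 0.026 and -0.49 ± 0.026). The mutant values against EV were -0.34 and -0.35 with the length and GC trend removed.

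Efemp1 and Efemp2 encode fibulin 3 and fibulin 4. Efemp1 had 14138, 14259 and 14094 normalized reads in CBL-70Z libraries, 13429, 13438 and 13791 in CBL-Y371S, 14413, 14162 and 14092 in WT-CBL and 11820.0, 11448 and 11832 in EV. All 9 libraries of the CBL lines exceeded the EV libraries, with log2 fold changes of 0.28 ± 0.025, 0.21 ± 0.025 and 0.28 ± 0.025 (limma adjusted p = 5.8e-08, 3.3e-07 and 4.9e-08), and it was the only gene of the 34 called higher than EV in all 3 lines. Efemp2, for the fibulin that brings lysyl oxidase to elastin, averaged 7792 ± 59.6 normalized reads in CBL-70Z, 8995 ± 173 in CBL-Y371S, 10854 ± 421 in WT-CBL and 8723 ± 200.2 in EV (SD, n = 3). It fell in CBL-70Z (-0.16 ± 0.03) and rose in WT-CBL (0.31 ± 0.03), and CBL-Y371S gave 0.044 ± 0.03 (adjusted p = 0.207). Against WT-CBL it was lower in CBL-70Z and CBL-Y371S (-0.48 and -0.27). Emilin1, an elastin and fibulin binding glycoprotein, fell in all 3 lines (-0.25 ± 0.031, -0.36 ± 0.031 and -0.25 ± 0.031). CBL-Y371S was also below WT-CBL (-0.11 ± 0.031), and CBL-70Z differed from WT-CBL by 0.0028 ± 0.031 (adjusted p = 0.958).

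The 4 LTBP genes encode proteins that hold latent TGF-beta in the matrix or bind fibrillin microfibrils. Their changes were small and of mixed sign. Ltbp1 rose in CBL-70Z (0.17 ± 0.03) and CBL-Y371S (0.11 ± 0.03, and 0.31 with the length and GC trend removed), and WT-CBL lay at 0.00033 ± 0.03 (adjusted p = 0.994). Ltbp2, which binds fibulin 5 rather than TGF-beta, had 2394, 2482 and 2410.3 normalized reads in CBL-70Z libraries, 2942, 2964 and 2837 in CBL-Y371S, 3562, 3619.6 and 3260.4 in WT-CBL and 2887, 3072 and 2973 in EV. The WT-CBL libraries were above and the CBL-70Z libraries below EV (0.22 ± 0.038 and -0.29 ± 0.038, adjusted p = 8.4e-05 and 6.9e-06), which set CBL-70Z at -0.52 and CBL-Y371S at -0.25 against WT-CBL. Ltbp3 rose in CBL-Y371S (0.16 ± 0.028, and 0.25 with that trend removed) and fell slightly in CBL-70Z (-0.083 ± 0.028, adjusted p = 0.0347), a call lost without any 1 of CBL-70Z replicates 1 and 2 and the 3 EV replicates (adjusted p = 0.0543 to 0.137) and gone once the length and GC trend was removed (0.002). In WT-CBL Ltbp3 was at 0.059 ± 0.028 (adjusted p = 0.0985), called without WT-CBL replicate 3 (0.079, adjusted p = 0.0156). Ltbp4 rose in CBL-Y371S (0.12 ± 0.041, adjusted p = 0.0143), with adjusted p = 0.0509 without CBL-Y371S replicate 2. Of the 14 tested elastic fiber genes, 8 fell and 2 rose in CBL-70Z, 6 fell and 4 rose in CBL-Y371S, and 5 fell and 3 rose in WT-CBL.

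**Figure D2:**
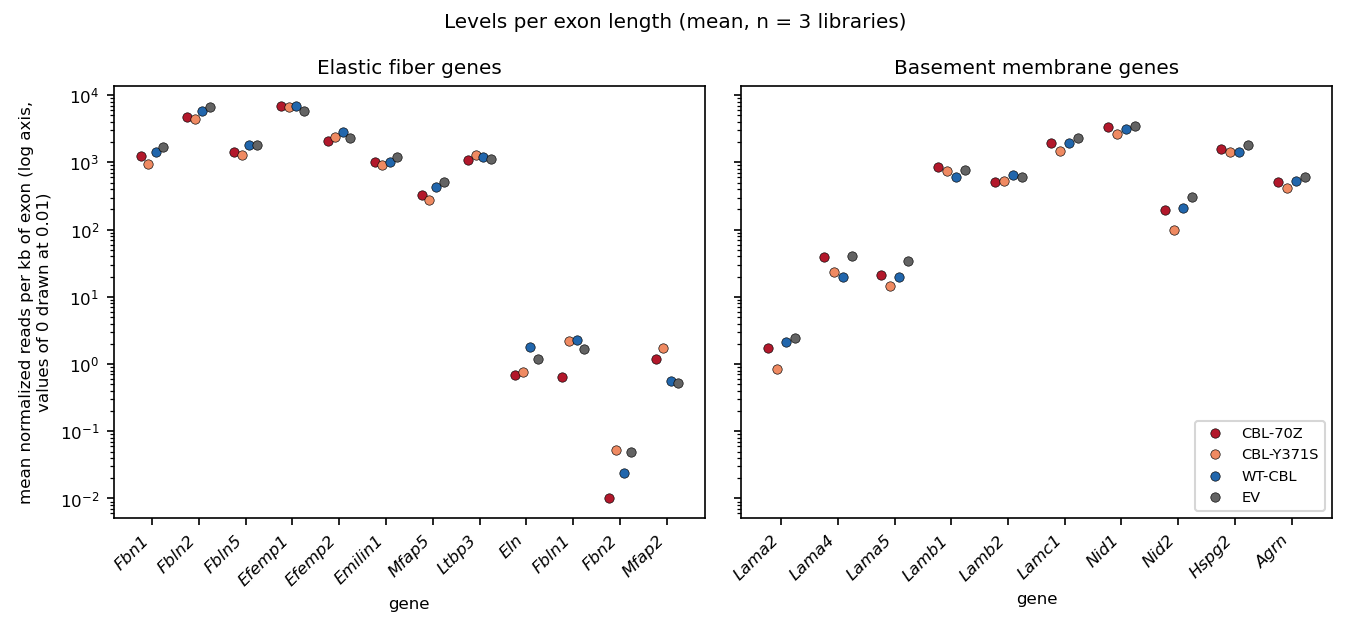
Mean normalized reads per kb of exon (y axis, log scale, n = 3 libraries per point) of 12 elastic fiber genes (left) and the 10 basement membrane genes (right) in CBL-70Z, CBL-Y371S, WT-CBL and EV. Eln, Fbln1, Fbn2 and Mfap2 lie far below the other elastic fiber genes in all lines, and the laminin alpha chains Lama2, Lama4 and Lama5 lie far below the beta and gamma chains.

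The laminin chains differed by more than an order of magnitude in level. Per kb of exon, the alpha chains Lama2, Lama4 and Lama5 summed to 61.5 ± 0.93 normalized reads in CBL-70Z, 39.1 ± 0.62 in CBL-Y371S, 41.8 ± 3.5 in WT-CBL and 77.7 ± 2.5 in EV (SD, n = 3 libraries). The beta chains Lamb1 and Lamb2 summed to 1360 ± 10.0, 1288 ± 5.6, 1260.1 ± 43.5 and 1373 ± 23.0 in the same order of lines, and the gamma chain Lamc1 to 1946 ± 17.8, 1499 ± 28.7, 1926 ± 167 and 2286 ± 22.1. The sum of the listed alpha chains was thus the lowest of the chain classes in every line, and its mean was lower in each CBL line than in EV. No test was run on these sums, and the length and GC trend was not removed from them. In CBL-70Z, of these alpha chains only Lama5 was called against EV.

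Lama4, the laminin alpha chain of vessels and mesenchyme (ENSMUSG00000019846, chr10:38965515-39110188 of GRCm38, plus strand), had 495, 480.2 and 439 normalized reads in CBL-70Z libraries, 269.7, 300.2 and 285 in CBL-Y371S, 238, 244 and 229.8 in WT-CBL and 506, 493 and 477 in EV. CBL-70Z libraries overlapped EV (-0.064 ± 0.064, limma adjusted p = 0.523), while CBL-Y371S and WT-CBL were at 58.0% and 48.3% of EV (-0.79 ± 0.064 and -1.05 ± 0.064, adjusted p = 2e-09 and 3.2e-10). CBL-70Z was 0.98 ± 0.064 above WT-CBL and 0.72 ± 0.064 above CBL-Y371S. With the length and GC trend removed, the CBL-Y371S value was -0.51 (adjusted p = 3.9e-07) and that of WT-CBL -0.85. Lama5, the most widely expressed alpha chain of adult basement membranes, had 229, 225 and 255 normalized reads in CBL-70Z libraries, 175, 149 and 175 in CBL-Y371S, 245, 243 and 196 in WT-CBL and 382, 425 and 372 in EV. All 3 lines lay below EV (-0.73 ± 0.094, -1.24 ± 0.094 and -0.79 ± 0.094, adjusted p = 7.2e-06, 8.7e-10 and 2e-06), and CBL-Y371S was at -0.45 against WT-CBL. Lama2, the alpha chain of muscle basement membrane, had 20.4, 35.7 and 28.3 normalized reads in CBL-70Z libraries, 11.6, 18.6 and 10.8 in CBL-Y371S, 39.5, 39.3 and 24.3 in WT-CBL and 38.2, 32.5 and 49.0 in EV. It fell in CBL-Y371S (-1.498 ± 0.26, adjusted p = 5.3e-05) and also lay below WT-CBL there (-1.27 ± 0.26), with values of -0.50 ± 0.26 in CBL-70Z and -0.22 ± 0.26 in WT-CBL that were not called. Without WT-CBL replicate 3 the WT-CBL value was 0.0018. The CBL-Y371S value of Lama2 against EV was -1.13 with the length and GC trend removed.

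Lamb1 and Lamb2 encode the beta chains. Lamb1 had 8356, 8529 and 8334 normalized reads in CBL-70Z libraries, 7491, 7411 and 7521 in CBL-Y371S, 6093, 6137 and 5893 in WT-CBL and 7608, 7599 and 7580.2 in EV. CBL-70Z was above and WT-CBL below EV, with no overlap (0.15 ± 0.025 and -0.33 ± 0.025, limma adjusted p = 0.00022 and 7.1e-09), and these were 0.22 and -0.18 with the length and GC trend removed. In CBL-Y371S Lamb1 was at -0.023 ± 0.025 (adjusted p = 0.445), and at 0.16 (adjusted p = 2.9e-06) with the length and GC trend removed, so its sign depended on that step. Lamb2, which replaces Lamb1 at synapses and in the kidney filter, fell in CBL-70Z (-0.24 ± 0.036) and CBL-Y371S (-0.18 ± 0.036). In WT-CBL it was at 0.10 ± 0.036 (adjusted p = 0.0319) with libraries that overlapped EV, and this call was lost without WT-CBL replicate 1 or 2 or EV replicate 2 or 3 (adjusted p = 0.0502 to 0.176, with a log2 fold change of 0.065 without WT-CBL replicate 2). Against WT-CBL it was lower in both mutants (-0.34 ± 0.036 and -0.28 ± 0.036). Lamc1, the gamma chain shared by most laminins, had 16242, 16101 and 15947 normalized reads in CBL-70Z libraries, 12636, 12160.3 and 12392 in CBL-Y371S, 16409.8, 17016 and 14377 in WT-CBL and 18730.2, 19095 and 18910.1 in EV. It fell in each line (-0.23 ± 0.041, -0.61 ± 0.041 and -0.25 ± 0.041, adjusted p = 0.00029, 1.7e-10 and 7e-05), and in CBL-Y371S it was also below CBL-70Z and WT-CBL. The WT-CBL value was -0.14 with the length and GC trend removed, and -0.18 without WT-CBL replicate 3.

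Nid2, for nidogen 2, had the lowest log2 fold change of the 34 genes in CBL-Y371S. Nid2 (ENSMUSG00000021806, chr14:19751265-19811787 of GRCm38, plus strand) had 1035, 1032 and 1017 normalized reads in CBL-70Z libraries, 553, 500.4 and 492 in CBL-Y371S, 1118, 1126 and 995 in WT-CBL and 1615, 1655 and 1508 in EV. CBL-Y371S libraries were at 32.4% of EV and lay below the libraries of every other line. Log2 fold changes against EV were -0.63 ± 0.053, -1.63 ± 0.053 and -0.56 ± 0.053 (limma adjusted p = 2.4e-08, 4.3e-15 and 1.2e-07). CBL-Y371S was -1.07 ± 0.053 against WT-CBL (adjusted p = 5.4e-12), whereas CBL-70Z differed from WT-CBL by -0.069 ± 0.053 (adjusted p = 0.348), and by -0.13 without WT-CBL replicate 3 (adjusted p = 0.0598). With the length and GC trend removed the values against EV were -0.60, -1.66 and -0.55. Nid1, the nidogen that links laminin gamma chains to collagen IV, was at 3528 normalized reads per kb of exon in EV, against 308 for Nid2. It averaged 23031 ± 168 normalized reads in CBL-70Z, 18393 ± 284 in CBL-Y371S, 21913 ± 1687 in WT-CBL and 24497 ± 211 in EV (SD, n = 3). It fell in CBL-Y371S (-0.41 ± 0.038) and WT-CBL (-0.16 ± 0.038), and in WT-CBL it was at -0.073 with the length and GC trend removed and -0.10 without WT-CBL replicate 3. CBL-70Z against WT-CBL was 0.075 ± 0.038 (adjusted p = 0.14), and 0.01 without that library.

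The basement membrane heparan sulfate proteoglycans fell in all 3 lines. Agrn encodes agrin, which clusters receptors at the neuromuscular junction and binds laminin. Its log2 fold changes were -0.23 ± 0.036, -0.51 ± 0.036 and -0.18 ± 0.036 (limma adjusted p = 6.4e-05, 2.8e-10 and 0.00038), and -0.15, -0.40 and -0.071 with the length and GC trend removed. Hspg2, for perlecan, had 22254, 21904 and 22713 normalized reads in CBL-70Z libraries, 21084, 20276 and 20084 in CBL-Y371S, 21756, 23042 and 16209 in WT-CBL and 26431, 27101 and 24946 in EV. The log2 fold changes were -0.23 ± 0.078, -0.35 ± 0.078 and -0.38 ± 0.078 (adjusted p = 0.0359, 0.00057 and 0.00058), and -0.11, -0.14 and -0.16 with the length and GC trend removed, where the CBL-70Z value was not called (adjusted p = 0.12). WT-CBL replicate 3 was the lowest of the 12 libraries, and without it WT-CBL was at -0.22 against EV, and CBL-70Z at -0.0057 against WT-CBL (0.15 with it, not called in either). CBL-Y371S against WT-CBL was then -0.13 (adjusted p = 0.00116), against 0.026 (adjusted p = 0.821) with it. The CBL-70Z call was lost without any 1 of the 3 CBL-70Z libraries or EV replicate 1 or 2 (adjusted p = 0.0714 to 0.13). Of the 10 basement membrane genes, 6 fell and 1 rose in CBL-70Z, 9 fell and none rose in CBL-Y371S, and 8 fell and 1 rose in WT-CBL.

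Decorin and lumican are small leucine-rich proteoglycans of collagen fibrils whose genes lie close together on chromosome 10, and both set CBL-Y371S and WT-CBL apart from CBL-70Z and EV. Dcn (ENSMUSG00000019929, chr10:97479609-97518143 of GRCm38, plus strand) had 24212, 25691 and 25051 normalized reads in CBL-70Z libraries, 16089, 16088 and 16423 in CBL-Y371S, 18001, 17574 and 17306 in WT-CBL and 24850.1, 24159 and 25145 in EV. Lum (ENSMUSG00000036446, chr10:97565128-97572703 of GRCm38, plus strand) had 4085, 4236 and 4179.9 normalized reads in CBL-70Z libraries, 2428, 2298 and 2429 in CBL-Y371S, 2574, 2372 and 2391 in WT-CBL and 5108, 4798 and 4928 in EV. For both genes the CBL-Y371S and WT-CBL libraries lay below all CBL-70Z and EV libraries. Dcn was at 65.5% of EV in CBL-Y371S and 71.3% in WT-CBL (-0.61 ± 0.028 and -0.49 ± 0.028, limma adjusted p = 5e-13 and 1.4e-10), and CBL-70Z was at 0.015 ± 0.028 (adjusted p = 0.749). Lum was at 84.3%, 48.2% and 49.5% of EV in CBL-70Z, CBL-Y371S and WT-CBL (-0.25 ± 0.036, -1.05 ± 0.036 and -1.02 ± 0.036). CBL-70Z exceeded WT-CBL by 0.50 ± 0.028 for Dcn and by 0.77 ± 0.036 for Lum (adjusted p = 3.1e-11 and 2.9e-12). CBL-Y371S against WT-CBL was -0.036 ± 0.036 for Lum (adjusted p = 0.47) and -0.12 ± 0.028 for Dcn, a sign that turned to 0.038 when the length and GC trend was removed. That step also moved the fall of Dcn in CBL-Y371S to -0.33 and left Lum there at -0.98.

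Biglycan is a close relative of decorin. At 12556 normalized reads per kb of exon in EV it was one of the 3 highest of the 36 genes, and it had 68644, 69971 and 68851 normalized reads in CBL-70Z libraries, 74587, 73739 and 74248 in CBL-Y371S, 77624, 79807 and 77049 in WT-CBL and 76925, 76673 and 76135 in EV. It fell slightly in CBL-70Z (-0.15 ± 0.025, limma adjusted p = 0.00019), and the values in CBL-Y371S and WT-CBL were -0.046 ± 0.025 and 0.029 ± 0.025 (adjusted p = 0.124 and 0.377). Fmod, for fibromodulin, which also binds collagen, had 14.3, 11.9 and 14.7 normalized reads in CBL-70Z libraries, 17.3, 19.8 and 7.22 in CBL-Y371S, 38.6, 36.1 and 33.4 in WT-CBL and 39.2, 45.04 and 28.8 in EV. Both mutants lay below EV and WT-CBL without overlap (against EV -1.39 ± 0.29 and -1.38 ± 0.29, adjusted p = 0.00122 and 0.00032, against WT-CBL -1.34 ± 0.29 and -1.34 ± 0.29, adjusted p = 0.00104 and 0.00089). WT-CBL against EV was -0.042 ± 0.29 (adjusted p = 0.923), and CBL-70Z against CBL-Y371S -0.0068 ± 0.29 (adjusted p = 0.987). At these counts the level rests on 7.22 to 45.04 normalized reads per library.

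Versican and hyaluronan synthase 2 make the pericellular hyaluronan coat, and both were lowest in CBL-Y371S. Vcan (ENSMUSG00000021614, chr13:89655312-89742509 of GRCm38, minus strand) had 34218, 34759 and 33104 normalized reads in CBL-70Z libraries, 20347, 20517 and 20345 in CBL-Y371S, 31367, 32139 and 27076 in WT-CBL and 37435, 37097 and 37018 in EV. Has2 (ENSMUSG00000022367, chr15:56665627-56694539 of GRCm38, minus strand) had 2288, 2311 and 2215 normalized reads in CBL-70Z libraries, 1036, 1105 and 1197 in CBL-Y371S, 1835, 1888 and 1857 in WT-CBL and 2642, 2451 and 2663 in EV. CBL-Y371S libraries were at 54.9% of EV for Vcan and 43.0% for Has2, below every library of the other lines. Log2 fold changes of Has2 against EV were -0.19 ± 0.045, -1.22 ± 0.045 and -0.47 ± 0.045 (limma adjusted p = 0.00425, 2.4e-14 and 1.2e-07), and CBL-Y371S was at -0.74 ± 0.045 against WT-CBL. Those of Vcan were -0.13 ± 0.043, -0.87 ± 0.043 and -0.30 ± 0.043 (adjusted p = 0.0344, 1.8e-12 and 1.2e-05). The CBL-70Z call of Vcan was lost without CBL-70Z replicate 1 or 3 or any 1 EV library (adjusted p = 0.0777 to 0.141). With the length and GC trend removed, Vcan was at -0.46 in CBL-Y371S (adjusted p = 1.5e-13) and -0.057 in WT-CBL (adjusted p = 0.0557), and its rise in CBL-70Z over WT-CBL (0.18 ± 0.043, and 0.10 without WT-CBL replicate 3) became -0.026 (adjusted p = 0.432). Has2 was then at -1.07 in CBL-Y371S and -0.44 in WT-CBL. Of the 6 proteoglycan and hyaluronan genes, 5 fell in CBL-70Z, 5 in CBL-Y371S and 4 in WT-CBL, and none rose.

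**Figure D3:**
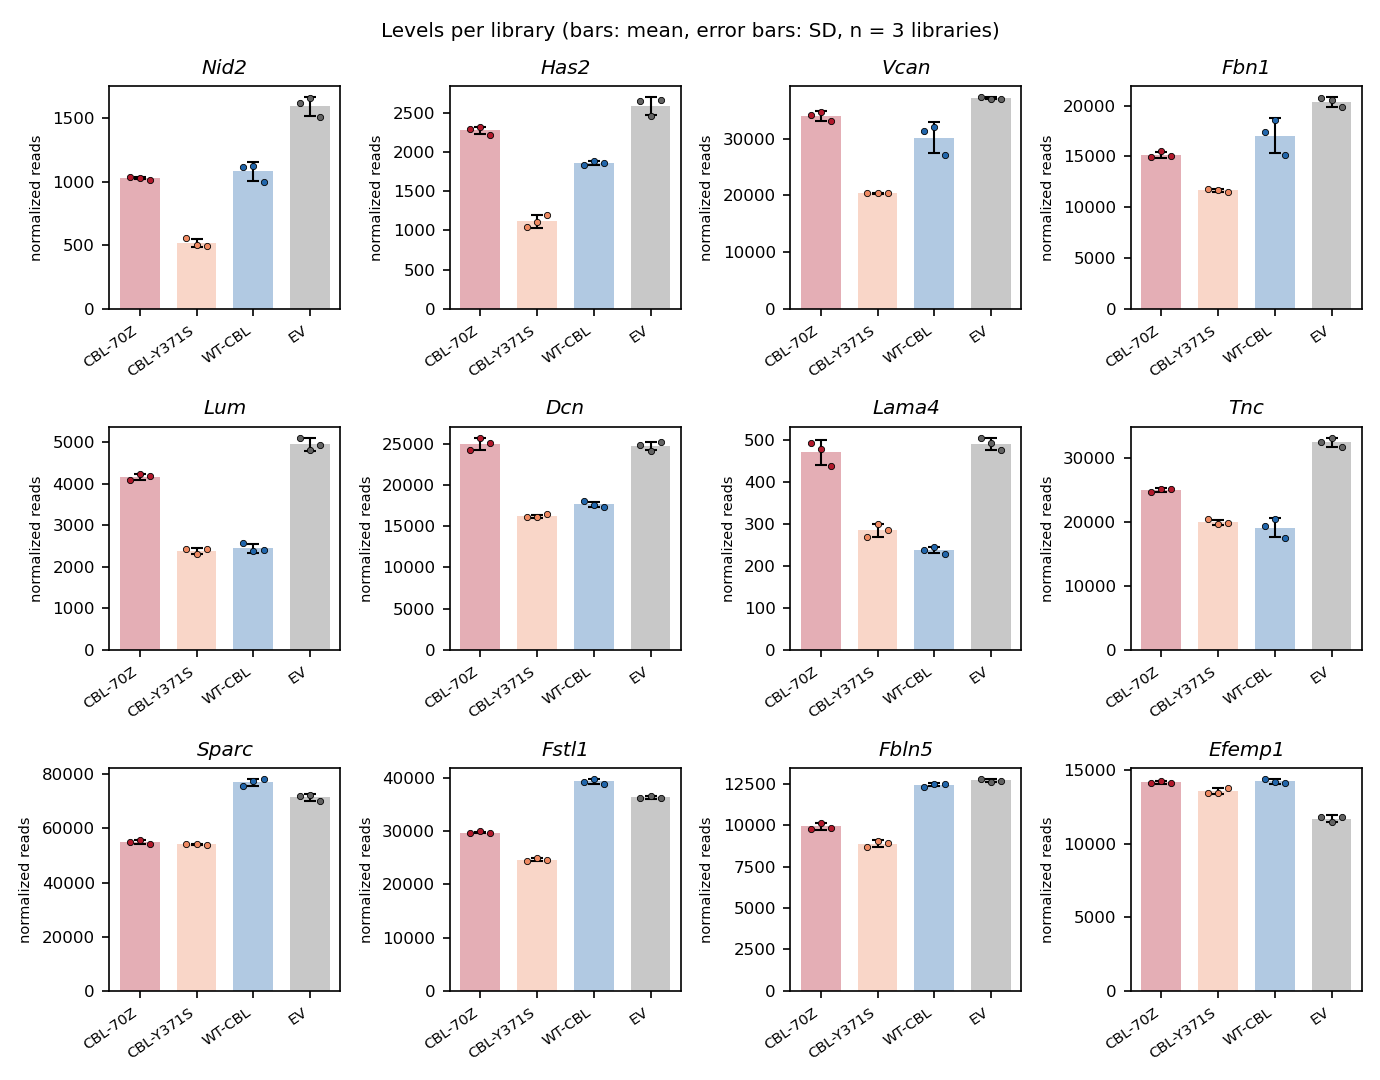
Normalized reads (y axis, from 0) of 12 genes in CBL-70Z, CBL-Y371S, WT-CBL and EV, with a point for each library, bars at the mean and error bars of 1 SD (n = 3 libraries). Nid2, Has2, Vcan and Fbn1 are lowest in CBL-Y371S, Lum, Dcn and Lama4 are low in CBL-Y371S and WT-CBL, Sparc, Fstl1 and Fbln5 are low in both mutants, and Efemp1 is lowest in EV.

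Fibronectin and SPARC had the highest levels per kb of exon in EV, at 13835 and 18871 normalized reads. Fn1, for the cell-binding glycoprotein on which cells assemble other matrix, had 141490.3, 141733 and 140587 normalized reads in CBL-70Z libraries, 130177, 125308 and 127372 in CBL-Y371S, 149667, 158771 and 123586 in WT-CBL and 163718, 164329 and 156955 in EV. Its log2 fold changes were -0.19 ± 0.057, -0.34 ± 0.057 and -0.17 ± 0.057 (limma adjusted p = 0.0161, 3e-05 and 0.0182). The fall in WT-CBL, whose libraries overlapped EV, was -0.069 without WT-CBL replicate 3 (adjusted p = 0.032), was not called without EV replicate 1 or 2 (adjusted p = 0.0613 to 0.0634) and was 0.0020 with the length and GC trend removed. With that trend removed the falls in CBL-70Z and CBL-Y371S were -0.11 and -0.13. The call in CBL-70Z was lost without CBL-70Z replicate 3 or EV replicate 1 or 2 (adjusted p = 0.0549 to 0.0638). Tnc, for tenascin C, a glycoprotein of wounds and tumor stroma that weakens adhesion to fibronectin, had 24683, 25231 and 25252 normalized reads in CBL-70Z libraries, 20406, 19660.1 and 19825 in CBL-Y371S, 19412, 20496 and 17496 in WT-CBL and 32591, 33192 and 31792 in EV. All libraries of the CBL lines lay below EV (-0.38 ± 0.04, -0.70 ± 0.04 and -0.77 ± 0.04, adjusted p = 5.3e-07, 1.1e-11 and 4.3e-11). CBL-70Z was above WT-CBL by 0.39 ± 0.04 and CBL-Y371S differed from WT-CBL by 0.064 ± 0.04 (adjusted p = 0.218), or by 0.0019 without WT-CBL replicate 3.

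Sparc and Fstl1 encode secreted glycoproteins with a follistatin-like domain, and they moved to opposite sides of EV in the mutant and WT-CBL lines. SPARC binds collagen and counters cell spreading. Sparc had 54851, 55820.2 and 54412 normalized reads in CBL-70Z libraries, 54254, 54171 and 54019 in CBL-Y371S, 75557, 77523 and 78146 in WT-CBL and 71822, 72469 and 70158 in EV. Fstl1, whose product modulates BMP signaling, had 29662, 29959 and 29656 normalized reads in CBL-70Z libraries, 24465, 24957 and 24610.0 in CBL-Y371S, 39347, 39892 and 38972 in WT-CBL and 36228, 36581 and 36216 in EV. For both genes the libraries of CBL-70Z and CBL-Y371S lay below EV and those of WT-CBL above it. The log2 fold changes of Sparc were -0.38 ± 0.026, -0.40 ± 0.026 and 0.11 ± 0.026 (limma adjusted p = 9.2e-10, 6.8e-11 and 0.00195), and those of Fstl1 -0.29 ± 0.023, -0.56 ± 0.023 and 0.12 ± 0.023 (adjusted p = 1.4e-08, 1.7e-13 and 0.0005). Against WT-CBL, CBL-70Z was at -0.49 ± 0.026 for Sparc and -0.40 ± 0.023 for Fstl1, and CBL-Y371S at -0.51 ± 0.026 and -0.68 ± 0.023 (adjusted p at most 6.8e-11). CBL-70Z and CBL-Y371S differed by 0.023 ± 0.026 for Sparc (adjusted p = 0.479) and by 0.27 ± 0.023 for Fstl1 (adjusted p = 1.6e-08).

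Sparc, Fstl1 and Fmod are the 3 genes outside the elastic fiber and basement membrane groups that were lower in both mutants than in EV and than in WT-CBL, and for that shared pattern the 250 bases before their RefSeq start sites (GRCm38.p6) are shown. The windows lie at chr11:55420081-55420330, minus strand for Sparc, at chr16:37776805-37777054, plus strand for Fstl1 and at chr1:134037004-134037253, plus strand for Fmod, are written 5′ to 3′ on the strand of the gene, and have a GC content of 54.0%, 68.0% and 51.2%. Capitals mark matches on either strand to a TATA box (TATAAA), a GC box (GGGCGG), an AP-1 site (TGANTCA) or a TEAD site (GGAATG), and only the GC box is found, at 2 places in Fstl1.
Sparc: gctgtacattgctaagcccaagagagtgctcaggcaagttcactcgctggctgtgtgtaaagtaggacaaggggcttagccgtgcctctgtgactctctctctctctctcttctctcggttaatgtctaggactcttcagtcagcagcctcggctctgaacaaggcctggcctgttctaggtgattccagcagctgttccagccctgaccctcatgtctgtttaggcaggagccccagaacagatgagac
Fstl1: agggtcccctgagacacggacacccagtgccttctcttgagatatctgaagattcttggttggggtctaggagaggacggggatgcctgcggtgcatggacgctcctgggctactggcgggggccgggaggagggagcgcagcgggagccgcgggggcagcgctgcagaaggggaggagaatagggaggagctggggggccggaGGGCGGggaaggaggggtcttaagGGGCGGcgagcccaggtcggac
Fmod: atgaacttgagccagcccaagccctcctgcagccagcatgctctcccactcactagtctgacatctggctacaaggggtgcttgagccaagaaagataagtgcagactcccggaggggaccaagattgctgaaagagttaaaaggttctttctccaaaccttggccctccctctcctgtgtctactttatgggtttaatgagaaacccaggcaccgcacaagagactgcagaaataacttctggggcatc
The 3 windows thus share none of these 4 motifs. RefSeq windows of this length were matched for 25 of the 36 genes. Of these 25, 18 had a GC box in at least 1 window. Some genes have several windows, and counted by window 24 of 35 held a GC box, against 32.7% of all 32851 mouse promoter windows. A TATA box was found in 2 of the 35 windows (Tnc only), against 12.4% of all windows. An AP-1 site was found in 1 of the 35 (Efemp1), against 6.75%, and a TEAD site in 2 (Mfap2 and Nid1), against 12.6%. A match is a run of letters and no measured site.

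The comparison of each mutant with WT-CBL divided the genes. In CBL-70Z against WT-CBL 14 genes were lower and 9 higher, with a median log2 fold change of -0.034, beside 35.2% of all genes called (16.3% down and 18.9% up) and 53.6% of those averaging 1000 or more. Without WT-CBL replicate 3 these were 15 lower and 8 higher with a median of -0.11, Agrn (-0.10) and Fn1 (-0.13) being called and Eln and Ltbp4 not, and without WT-CBL replicate 1 the median was 0.0042. Of the 9 higher genes, 7 were below EV in WT-CBL and above WT-CBL in CBL-70Z (Dcn, Has2, Lama4, Lamb1, Lum, Tnc and Vcan). In CBL-Y371S against WT-CBL 23 were lower and 5 higher (Lama4, Lamb1, Ltbp1, Ltbp3 and Ltbp4), with a median of -0.28, beside 40.0% of all genes called (21.5% down and 18.5% up) and 60.5% of those averaging 1000 or more. The calls of Fbn1, Fbln1 and Eln given above and of Ltbp4 in CBL-70Z against WT-CBL were each lost when 1 library was left out, that of Ltbp4 without CBL-70Z replicate 1 or 3 or WT-CBL replicate 3 (limma adjusted p = 0.0975 to 0.145, and 0.077 as its log2 fold change without WT-CBL replicate 3). In CBL-Y371S against WT-CBL the falls of Efemp1 (-0.07) and Bgn (-0.075) were not called without 1 of several libraries of these 2 lines (CBL-Y371S replicate 1 or 2 or WT-CBL replicate 1 for Efemp1, and any CBL-Y371S replicate or WT-CBL replicate 2 for Bgn, adjusted p = 0.096 to 0.111 and 0.0527 to 0.0875). That of Fn1 (-0.17, overlapping libraries) was not called without CBL-Y371S replicate 2 or 3 or WT-CBL replicate 1 or 2 (adjusted p = 0.06 to 0.179, -0.093 without WT-CBL replicate 2 and -0.27 without WT-CBL replicate 3). A set of 8 genes was lower in both mutants than in EV and in WT-CBL (Fbln2, Fbln5, Fbn1, Fmod, Fstl1, Lamb2, Mfap5 and Sparc). Of these, 5 belong to the elastic fiber or basement membrane groups, which hold 14 and 10 of the 34 tested genes. These comparisons share the EV and WT-CBL libraries, and the share of all tested genes in such a set was not counted.

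Between the mutants, 22 genes were higher and 6 lower in CBL-70Z than in CBL-Y371S, with a median log2 fold change of 0.16, beside 50.4% of all genes called (25.9% up and 24.5% down) and 73.0% of those averaging 1000 or more. The largest differences with CBL-70Z higher were in Has2 (1.03 ± 0.045), Nid2 (0.997 ± 0.053), Lama2 (0.99 ± 0.26), Mfap4 (0.83 ± 0.26) and Lum (0.81 ± 0.036), and 8 of the 10 basement membrane genes were in this group. The call of Mfap4 was lost without CBL-70Z replicate 3 or CBL-Y371S replicate 1 (limma adjusted p = 0.0509 to 0.102), and its difference was 0.53 without CBL-Y371S replicate 1. The 6 genes lower in CBL-70Z were Fbln1, Ltbp2 (-0.26), Ltbp3 (-0.24), Efemp2 (-0.21), Ltbp4 (-0.10) and Bgn (-0.10). Of these 6, 5 came from the elastic fiber group, the largest, in which 7 of 14 tested genes were higher in CBL-70Z. The differences of Fbln2 (0.09), Efemp1 (0.064), Fn1 (0.15) and Ltbp4 were not called without 1 library. For Fbln2 this was CBL-Y371S replicate 3 (adjusted p = 0.0552), for Fn1 any library of either mutant (0.0554 to 0.0913), for Efemp1 any CBL-70Z library, CBL-Y371S replicate 1 or 2 or EV replicate 1 (0.0519 to 0.125), and for Ltbp4 CBL-70Z replicate 2, any CBL-Y371S library or EV replicate 1 or 2 (0.0506 to 0.211). With the length and GC trend removed, Fbln5 (0.0065), Lamb1 (0.057), Fn1 (0.023), Efemp1 (0.015) and Ltbp4 (-0.044) were not called between the mutants, and Vcan was at 0.38. Both proteins lack ligase activity, CBL-70Z through a deletion and CBL-Y371S through a substitution. A set of 16 genes was lower in CBL-Y371S than in EV, CBL-70Z and WT-CBL, among them Nid2, Has2, Vcan, Fbn1, Lamc1, Lama5 and Mfap5. It also counts Fbln5 and Fn1, which were not called between the mutants with the length and GC trend removed. Dcn, also counted, was then at 0.038 in CBL-Y371S against WT-CBL. The share of all tested genes with this pattern was not counted.

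Long transcripts tended to be lower in every CBL line than in EV, and the matrix genes are longer than most. Over 11141 genes averaging 100 or more, the log2 fold change against EV had a Spearman rho with exon length of -0.26 in CBL-70Z, -0.52 in CBL-Y371S and -0.59 in WT-CBL, a description across genes, which share libraries and are not replicates. With GC content rho was -0.044, 0.35 and 0.21 in the same order of lines. The 34 genes had a median exon length of 6687 bases, against 3781 in all tested genes with a length. Among the 34 genes themselves rho with exon length was 0.17, 0.0090 and -0.21 in CBL-70Z, CBL-Y371S and WT-CBL against EV. Once the length and GC trend was removed, 21 fell and 4 rose in CBL-70Z with a median of -0.20, 24 fell and 5 rose in CBL-Y371S with a median of -0.42, and 16 fell and 9 rose in WT-CBL with a median of -0.070. Against WT-CBL, 16 were then lower and 8 higher in CBL-70Z (median -0.063), and 21 lower and 6 higher in CBL-Y371S (median -0.32). Between the mutants 19 were then higher and 5 lower in CBL-70Z (median 0.17). The shares of all genes called, given above, are from the fit without this step. Those with the trend removed are not given here, so these counts have no background beside them. The falls of Nid2, Lum, Has2, Tnc, Lama5 and Mfap5 were called in each line also with the trend removed. In WT-CBL those of Fbn1, Fn1 and Vcan were then not called, and Ltbp1, Ltbp3 and Bgn rose.

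**Figure D4:**
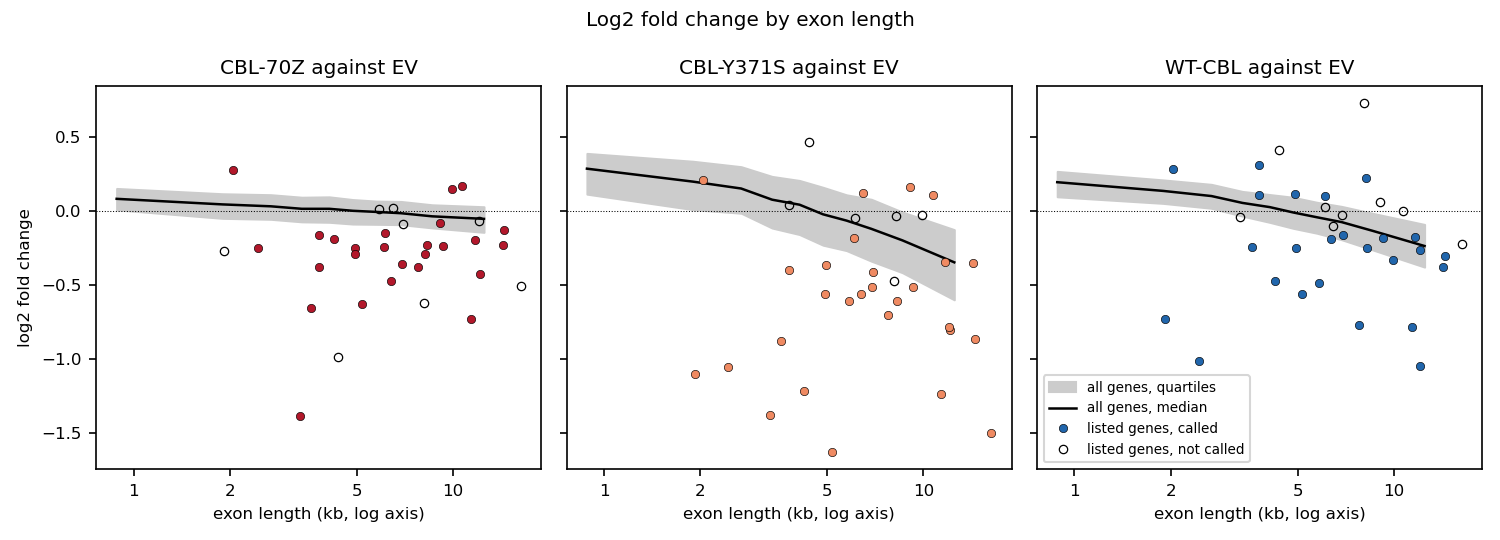
Log2 fold change against EV (y axis) by exon length (x axis, kb, log scale) in CBL-70Z, CBL-Y371S and WT-CBL cells. The line and band are the median and quartiles of 11141 genes in bins of length, filled points are called and open points not called among the 34 matrix genes, and the matrix genes have medians of -0.25, -0.51 and -0.19 in the 3 panels.

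Genes that assemble, extend or read this matrix, in lists written with earlier results of these data known, changed in both directions, with the same background shares as above. Of 16 tested genes for elastic fiber assembly and crosslinking, 7 fell and 3 rose in CBL-70Z, 9 fell and 3 rose in CBL-Y371S, and 6 fell and 5 rose in WT-CBL. Atp7a, the copper transporter that supplies lysyl oxidases, was the lowest in CBL-Y371S (-1.55, with 283 normalized reads against 833 in EV) and in WT-CBL (-0.997). Thsd4, for a fibrillin-binding ADAMTS-like protein, was the lowest in CBL-70Z (-0.99), where Mfap3l was the highest (0.48). Adamtsl4 was the highest in CBL-Y371S and WT-CBL (0.53 and 0.57).

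Of 18 tested other basement membrane genes, 10 fell and none rose in CBL-70Z, 11 fell and 2 rose in CBL-Y371S, and 4 fell and 4 rose in WT-CBL. Smoc2, a calcium-binding matrix glycoprotein related to SPARC, was the lowest in CBL-70Z and CBL-Y371S (-0.64 and -1.05, with 3571 and 2694 normalized reads against 5572 in EV). In WT-CBL the lowest was Col4a1, for a chain of collagen IV (-0.55), and the highest Tinagl1 (0.49). Fras1, of the Fraser complex, was the highest in CBL-Y371S at 10.3 normalized reads against 1.197 in EV. Of 26 other proteoglycan and hyaluronan genes, 8 fell and 6 rose in CBL-70Z, 11 fell and 6 rose in CBL-Y371S, and 9 fell and 5 rose in WT-CBL. Cd44, the main hyaluronan receptor, was the highest in CBL-70Z and CBL-Y371S (0.46 in each), and the leucine-rich gene Ogn the highest in WT-CBL (0.63). The lowest were Cemip, which takes part in hyaluronan breakdown, in CBL-70Z (-0.60), Aspn, for asporin, in CBL-Y371S (-1.27), and Has1 in WT-CBL (-1.504).

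Of 17 other matrix glycoproteins, 10 fell and 2 rose in CBL-70Z, 10 fell and 3 rose in CBL-Y371S, and 4 fell and 5 rose in WT-CBL. Sparcl1, a relative of Sparc, was the highest in CBL-70Z and CBL-Y371S (1.36 and 1.03, with 662 and 527 normalized reads against 259 in EV), opposite to Sparc. Tnn, for tenascin N, was the lowest in CBL-Y371S and WT-CBL (-1.95 and -0.88), Postn, for periostin, the lowest in CBL-70Z (-1.27), and Srpx2 the highest in WT-CBL (0.71). Among 20 receptors for these proteins, 7 fell and 6 rose in CBL-70Z, 12 fell and 5 rose in CBL-Y371S, and 9 fell and 3 rose in WT-CBL. Itga6, a laminin-binding integrin chain, was the highest in both mutants (1.47 and 1.37, with 1238 and 1156 normalized reads against 446 in EV). Itga7, another laminin-binding chain, was the lowest in CBL-70Z and WT-CBL (-0.89 and -0.97, with 19.9 and 20.1 normalized reads against 37.8 in EV). Itga11, a collagen-binding chain, was the lowest in CBL-Y371S (-1.60), and Itga10 the highest in WT-CBL (0.38). All these values were called by the limma test.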

How the data were processed

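RNA of NIH-3T3 cells at passages 13 to 17 was sequenced in 12 libraries, 3 for each of 4 lines. The authors checked reads with FastQC 0.10.1, aligned them with TopHat2 2.0.13 on Bowtie2 2.2.4.0 (mouse build GRCm38), used HTSeq 0.9.1 for counts per gene and normalized these with DESeq2 (version not stated). Libraries carry no strand mark, so reads of overlapping antisense genes cannot be told apart. The deposited values are a signal, counts divided by size factors by the authors. Each of the 3 tables holds one CBL line and EV and had its own normalization. Columns with the authors' fold changes, errors, test statistics and p-values were not used.

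Whole reads were recovered for 100% of values at a tolerance of 1e-06, with equal EV reads in all 3 tables, and median-of-ratios size factors over the 12 libraries gave a common scale. Genes averaging 10 or more in any line were tested on log2(value + 1) with limma 3.58.1 (lmFit, contrasts, eBayes with trend) in R 4.3.3 in 6 comparisons, two-sided, with Benjamini-Hochberg adjustment over 15266 genes and a threshold of 0.05. Fold changes are on the log2(value + 1) scale, which understates changes of low genes, and a fold change ± SE is limma's. On simulated data the test found 68%, 78% and 82% of genes changed 1.25-fold and 98%, 98% and 100% of those changed 2-fold (CBL-70Z, CBL-Y371S and WT-CBL against EV, 50 genes per fold among 15266). All 3 simulations took their means and spreads from all 12 libraries, so these percentages do not rank the comparisons. Far fewer genes were changed in them than were called in the data (3705, 9178 and 6383 against EV), so the shares found in the data may differ.

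The 36 genes and all lists were chosen with earlier results of these data known. All 36 are described, per library where a called log2 fold change was at least 0.5 in size against EV or WT-CBL or where the account needs it. In each related list the genes with the highest and the lowest called fold change against EV are named. Alternatives were edgeR 4.0.16 (quasi-likelihood, TMM) and DESeq2 1.42.0 on recovered reads, TMM-scaled values, pseudocounts of 0.5 and 5, no filter, a filter at 100, only the 2 lines compared, a replicate block, removal of the dependence on exon length and GC content (natural splines, 5 degrees of freedom), and each library left out. Gene positions and exon lengths are from GENCODE M21 (GRCm38), and promoter windows from RefSeq.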

Additional observations from a re-analysis of the deposited data

How the results depend on the processing

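Over 204 values (34 genes in 6 comparisons) and 4650 alternatives, 4481 stayed on the same side of the threshold without a called value changing sign, 115 lost their call, 43 gained one and 11 changed sign where the main value or the alternative was called. Values that were called in neither could change sign too and are not listed. Of these 11, 10 did so with the length and GC trend removed, with and without the replicate block. These were Ltbp3 in CBL-70Z against EV (0.0020), Lamb1 in CBL-Y371S against EV (0.16), Fn1 in WT-CBL against EV (0.0020), Vcan in CBL-70Z against WT-CBL (-0.026) and Dcn in CBL-Y371S against WT-CBL (0.038). The other was Hspg2 in CBL-Y371S against WT-CBL without WT-CBL replicate 3 (-0.13, in a range of -0.13 to 0.12 over the libraries left out). The median of the genes in CBL-70Z against WT-CBL was -0.11 to 0.0042 with 1 library left out, positive without WT-CBL replicate 1. The cause was not tested. With 1 library left out, 22 to 27 of the 34 genes were called in CBL-70Z, 27 to 29 in CBL-Y371S and 23 to 26 in WT-CBL against EV, 21 to 24 (CBL-70Z) and 26 to 29 (CBL-Y371S) when set against WT-CBL, and 24 to 29 between the mutants. Over all genes these ranges were 2897 to 4609, 8515 to 9501, 5320 to 6462, 4393 to 5497, 5143 to 6695 and 6921 to 8105. No filter cost 12 calls and DESeq2 7. Eln, Fbln1, Fmod, Lama2 and Mfap4 gave no value with the filter at 100, nor did Fbln1 without EV replicate 2 or WT-CBL replicate 1. Same-numbered libraries did not deviate together (r of -0.22 to 0.22 in 18 pairs, 1 over 0.1, against -0.18 to 0.29 in differently numbered ones). No pairing by number was thus seen, but with 3 libraries per line these correlations cannot exclude one. With a replicate block 201 of 204 values were on the same side of the threshold, Eln in CBL-Y371S against WT-CBL gained a call (adjusted p = 0.0372, limma) and Efemp1 and Ltbp4 between the mutants lost theirs (adjusted p = 0.0508 and 0.052). Depth limits Eln, Fbln1, Fmod, Lama2 and Mfap4, whose levels are under 100 normalized reads in every library.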
